A study of Mus musculus with 24 samples.

Results

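Cortical RNA of 5xFAD mice labelled heterozygous for a Plcg2 knockout was compared with that of 5xFAD mice wild type at Plcg2 and Trem2. The comparison took every library whose column name carried the heterozygous or the wild-type label, 12 of the 24 libraries in the series, with 6 in each group. The study crossed 5xFAD mice, whose transgenes include a mutant human amyloid precursor protein and which form plaques, with mice lacking Plcg2 or Trem2, and sequenced poly(A)-selected RNA from cortex at 7.5 months, 1 library per mouse. The group labelled heterozygous (Plcg2HET) and the wild-type group (WT) each held 3 males (M1 to M3) and 3 females (F1 to F3). All mice in both groups carried 5xFAD, so no value here can be set against cortex without the transgenes. The homozygous Plcg2 knockout on 5xFAD (Plcg2KO, 4 males and 2 females) and the Trem2 knockout on 5xFAD (Trem2KO, 3 males and 3 females) enter only as reference levels. Neither the exons removed from Plcg2 nor the litters of the mice are stated in the labels, so p-values measure the spread between these mice. The animal numbers in the labels form separate ranges in WT and Plcg2HET, and what they stand for is not stated. Whatever differs between those ranges cannot be told apart from the genotype label.

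Plcg2 encodes phospholipase C gamma 2, which cleaves a membrane phosphoinositide into second messengers that release calcium and activate protein kinase C. In the brain it is expressed mainly by microglia, where it acts below TREM2, a receptor for lipids that signals through the adaptor TYROBP and the kinase SYK. Around plaques, microglia that signal through this route lower homeostatic genes such as Cx3cr1 and take up a disease-associated (DAM) programme that includes Itgax, Cst7 and Lpl. Variants of human PLCG2 that change its activity alter the risk of Alzheimer's disease, which makes a reduced gene dose of interest.

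Assigned read totals ran from 43923855 to 71319535 in WT and from 36272966 to 68914247 in Plcg2HET, and Xist and Y-linked genes fitted the sex on the label in all 24. The libraries labelled heterozygous were the less alike. The median gene had an SD of 0.329 on the log2 scale among them and 0.214 among WT, and 78.1% of genes varied more among them. The first principal component, with 34.1% of the variance, spread them with an SD of 37.7 against 13.8 for WT. Plcg2HET M1, M2, F1 and F3 lay beyond all WT on that axis, while Plcg2HET M3 and F2 lay at its other end with WT M2. A library's position followed the GC content of its genes: the Spearman correlation between a gene's deviation in that library and its GC content ran from -0.501 in Plcg2HET M3 to 0.592 in Plcg2HET F1, and from -0.57 to 0.193 in WT. Across tested genes, the log2 fold change of Plcg2HET against WT itself had a Spearman correlation of 0.364 with GC content and 0.115 with gene length. The ribosomal RNA gene Rn45s took 29.0% of the reads of Plcg2HET F3, 9.59% of WT F1 and 5.29% of Plcg2HET F1, and at most 2.69% in the other 9 libraries. The part of these differences in the results was not tested beyond the fits without those libraries given beside them.

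**Figure D1:**
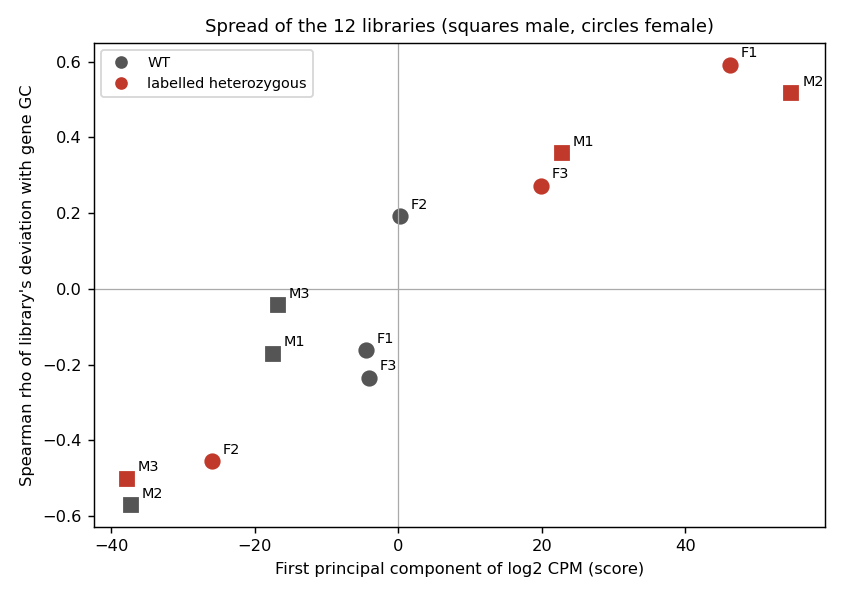
Each point is 1 of the 12 libraries; the x axis is its score on the first principal component of log2 CPM and the y axis the Spearman correlation of its gene deviations with gene GC content. Plcg2HET M1, M2, F1 and F3 sit at the right with correlations of 0.273 to 0.592, and Plcg2HET M3 and F2 at the left with -0.501 and -0.455.

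The targeted gene did not separate the groups. Plcg2 (chr8:117498291-117635142, mm10) had 7.58 CPM (counts relative to library size, with TMM scaling between libraries) in the lowest WT library, a median of 12.3 and 14.9 in the highest, against 5.79, 11.5 and 19.6 in Plcg2HET. The Plcg2HET values span the whole WT range, with 1 library above and 1 below every WT library. The log2 fold change was 0.04 with a standard error (SE) of 0.21, a 95% interval of -0.41 to 0.49 and an adjusted p of 0.932 (edgeR's quasi-likelihood test with Benjamini-Hochberg adjustment), and the two-sided exact permutation test of 6 against 6 gave p = 0.948. The permutation test took no account of sex, unlike the fit. The 95% interval of the fit does not reach a fall of 1 on the log2 scale, the size that loss of the transcript from 1 of a pair of equal alleles would give. In homozygous Plcg2KO, scaled over all 24 libraries, Plcg2 stood at 0.739 to 1.20 CPM, and the log2 difference from Plcg2HET was -3.51 (SE 0.25, adjusted p 3.84e-06). The counts therefore separate the homozygous label but not the heterozygous label, and each direction given here is that of libraries labelled heterozygous. By sex, its mean was 9.12 CPM in WT males and 14.0 in WT females, and 9.70 and 14.1 in Plcg2HET.

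Trem2 (chr17:48346401-48352276, mm10), the receptor upstream, did not separate the groups either. It had 45.8 CPM in the lowest WT library, a median of 79.2 and 116 in the highest, against 55.2, 81.8 and 137 in Plcg2HET, and the groups overlapped. The log2 fold change was 0.23 (SE 0.13, 95% interval -0.05 to 0.52, adjusted p 0.304), with an exact permutation p of 0.517 on log2(CPM + 0.5), where the smallest p that 924 splits allow is 0.00216. The permutation test took no account of sex, so its spread holds the sex difference given below. The edgeR fit, which did, had an unadjusted p of 0.0948. With GC and length offsets the log2 fold change was 0.27 and passed the threshold (adjusted p 0.027), and without Plcg2HET M3 and F2 it was 0.39 (adjusted p 0.00673). Plcg2HET M3 and F2 lay with WT M2 on the first principal component of these same counts. Leaving them out can widen differences from WT by that choice alone. The WT mean of Trem2 was 50.4 CPM in males and 111 in females, and the Plcg2HET means were 65.4 and 118. Against these, Plcg2KO had 14.1 to 28.6 CPM, and its log2 difference from Plcg2HET was -2.12 (SE 0.19, adjusted p 1.89e-05). None of the 14 phospholipase C genes tested was called by edgeR, with 5 at an unadjusted p under 0.05, 3 called by DESeq2 and 2 by limma-voom. The nearest to the threshold were Plcb3 and Plcd4, with log2 fold changes of 0.51 (SE 0.15, adjusted p 0.0628) and 0.56 (SE 0.17, adjusted p 0.0672). Of 73 tested genes within 5 Mb of Plcg2, 4 were called higher and 1 lower, which is 6.85%, where 4.68% of all tested genes were called.

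Across the cortex, 736 of 15739 tested genes were called at an adjusted p under 0.05, 4.68%, with 513 higher in Plcg2HET (3.26%) and 223 lower (1.42%). Groups did not overlap at all, every Plcg2HET library above every WT library, for 335 genes (2.13%), and the reverse held for 238 (1.51%). The median log2 fold change over all tested genes was 0.01. Most changes were small: 43 of the higher and 17 of the lower genes differed by more than 1 on the log2 scale. Calls depended on single libraries. The count fell to 66 without WT F3, 74 without WT F1, 85 without WT M2, 104 without Plcg2HET F3 and 124 without Plcg2HET F1, and to 180 to 416 without WT M1, M3 or F2 or Plcg2HET M1 or M2, rose to 2057 without Plcg2HET M3 and 1709 without Plcg2HET F2, and was 1 (Plin4) without the 3 libraries over 5% Rn45s. In that last fit all 513 and 223 genes kept their sign. With offsets for GC and length, 1271 genes were higher (8.08%) and 920 lower (5.85%), so that 58.0% of calls were higher, against 69.7% without the offsets, and these included 492 of the 513 and 204 of the 223. The fit without the 3 libraries and the fit with offsets reuse libraries in which these genes were called. Kept signs and calls are therefore no separate support. In every one of the 12 fits that left out a library, 34 of the higher and 23 of the lower genes were called. The genes called higher were not carried by all Plcg2HET libraries alike: of the 513, 503 lay above all WT in Plcg2HET F1 and 277 in Plcg2HET M3.

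**Figure D2:**
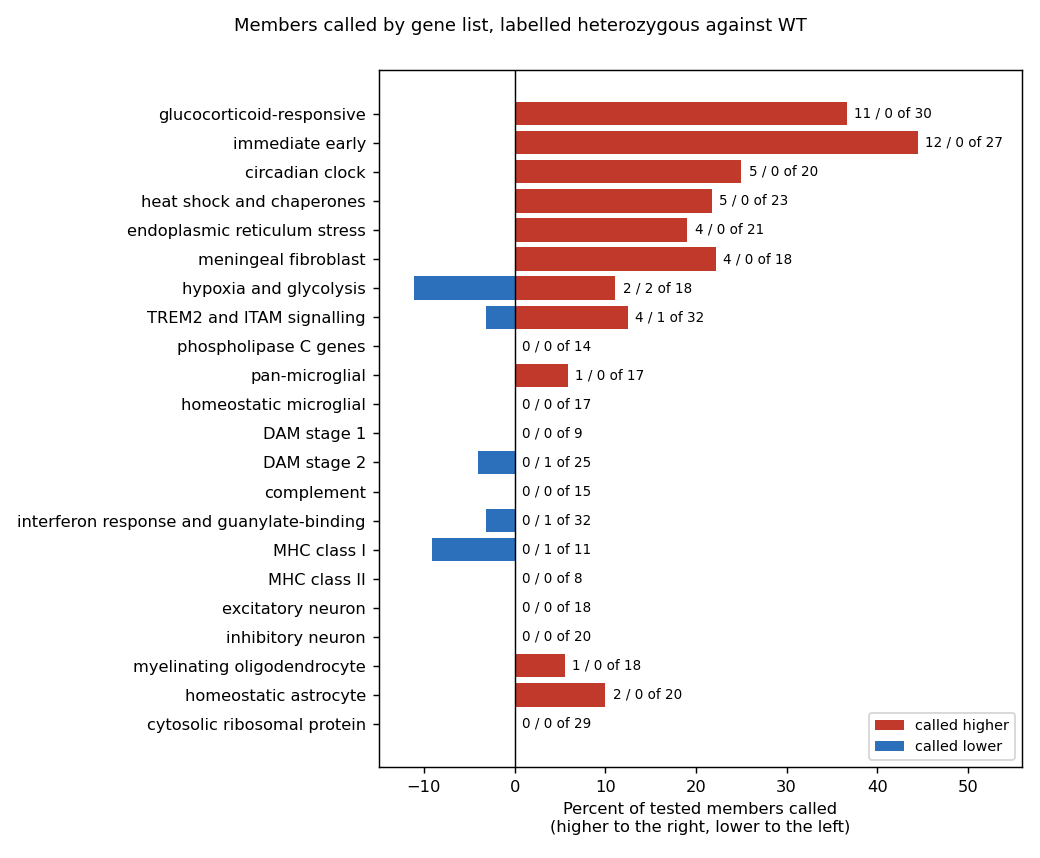
Bars give the percent of tested members of each gene list called higher (right) or lower (left) in Plcg2HET, with the counts beside them. The immediate early and glucocorticoid-responsive lists stand highest, with 12 of 27 and 11 of 30, against 3.26% of all tested genes, while the microglial lists hold 0 or 1 called member in each direction.

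Of 30 glucocorticoid-responsive genes tested, 11 rose and 0 fell, against 3.26% and 1.42% of all tested genes, and the list's median log2 fold change was 0.48, where that of all genes was 0.01. Plin4 (chr17:56100591-56109802, mm10), which encodes a lipid droplet coat protein, had 1.63 CPM in the lowest WT library, a median of 2.39 and 3.88 in the highest, against 11.6, 21.2 and 39.0 in Plcg2HET. Every Plcg2HET library lay above every WT library, and the log2 fold change of 3.04 (SE 0.26, adjusted p 8.43e-05) was the largest among genes whose log2 CPM averaged 1 or more. Plin4 overlaps Hdgfrp2, and the labels do not say whether the counting used strand. Sgk1 (chr10:21882184-21999902, mm10), a kinase that regulates ion channels, ran from 58.8 through a median of 62.2 to 74.8 CPM in WT and from 102 through 139 to 177 in Plcg2HET. Its groups were also separate, and the log2 fold change came to 1.11 (SE 0.11, adjusted p 0.000492). Hif3a, a regulator of the hypoxia response, gave 2.94, 4.04 and 4.41 CPM as lowest, median and highest in WT and 8.44, 11.7 and 15.9 in Plcg2HET (log2 fold change 1.60, SE 0.17, adjusted p 0.000519). Zbtb16, a transcriptional repressor, gave 21.3, 26.5 and 28.7 CPM against 38.6, 52.3 and 61.1 (log2 fold change 1.0, SE 0.14, adjusted p 0.00448). Neither gene overlapped between groups.

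Smaller increases were called for further members of the list, while 19 of its 30 members were not called. Tsc22d3, which encodes the anti-inflammatory protein GILZ, rose from 48.5 to 53.5 CPM in WT to 66.8 to 89.0 in Plcg2HET (log2 fold change 0.61, SE 0.10, adjusted p 0.00847). Fkbp5, a co-chaperone that dampens the glucocorticoid receptor, spanned 27.6 to 39.4 CPM in WT and 39.6 to 66.3 in Plcg2HET, so that the groups met but did not overlap (log2 fold change 0.67, SE 0.14, adjusted p 0.0241). The cell cycle inhibitor Cdkn1a rose by 0.51 (SE 0.09, adjusted p 0.0163) without overlap. The clock gene Per1 (1.0, SE 0.21, adjusted p 0.0241), the metallothioneins Mt2 (1.08, SE 0.23, adjusted p 0.0241) and Mt1 (0.79, SE 0.19, adjusted p 0.0336) and the arrestin-related Arrdc2 (0.67, SE 0.17, adjusted p 0.0422) also rose on the log2 scale, with at least 1 Plcg2HET library inside the WT range. Plin4, Sgk1, Hif3a, Zbtb16 and Tsc22d3 were called in all 12 fits that left out a library. The list's count was 5 without WT F1 or WT F3, and 6 without WT M2, Plcg2HET F1 or Plcg2HET F3. Without the 3 libraries over 5% Rn45s it was 1, and the median log2 fold change of the list was 0.26.

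Levels in the knockouts differed from gene to gene. On the scale of all 24 libraries, Plin4 averaged 2.77 ± 0.972 CPM in WT, 22 ± 9.66 in Plcg2HET, 7.25 ± 4.82 in Plcg2KO and 5.58 in Trem2KO (SD, n = 6). Plcg2KO was lower than Plcg2HET for Plin4 by a log2 difference of -1.66 (SE 0.39, adjusted p 0.0105). For Sgk1 the means were 66.3 ± 7.42 CPM in WT, 142 ± 25.3 in Plcg2HET and 126 ± 39.2 in Plcg2KO (SD, n = 6), and the log2 difference between the last pair was -0.18 (SE 0.19, adjusted p 0.513). Zbtb16 averaged 51.9 ± 10.4 CPM in Plcg2HET and 51.2 ± 12.9 in Plcg2KO (SD, n = 6; log2 difference -0.04, SE 0.18, adjusted p 0.877). Trem2KO averaged 86.4 CPM for Sgk1 and 35.0 for Zbtb16, where WT averaged 66.3 and 26.3. The difference between the homozygous and heterozygous labels thus passed the threshold for Plin4 and not for Sgk1 or Zbtb16. This comparison reuses the Plcg2HET libraries from which these genes were named. Part of a difference back towards WT can therefore come from that choice, for these genes and for the other named genes set against Plcg2KO below.

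**Figure D3:**
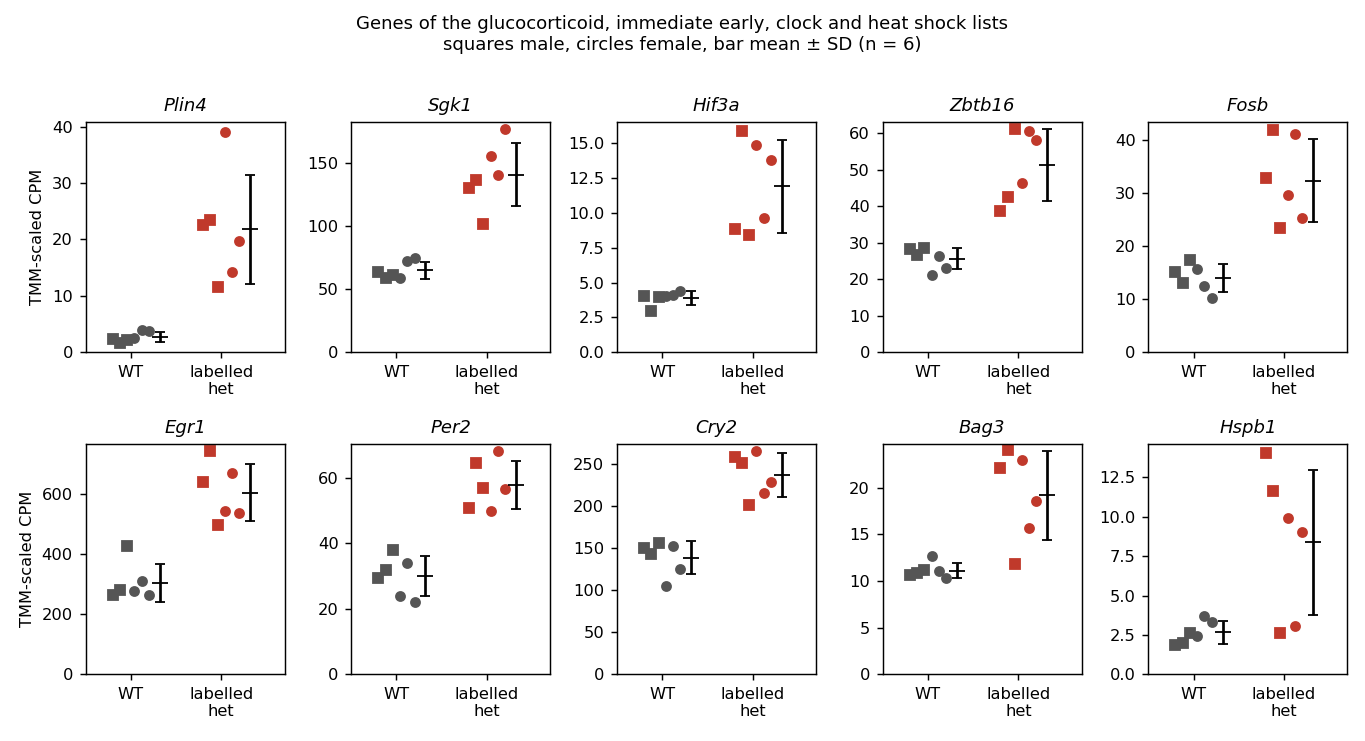
Each point is the TMM-scaled CPM of 1 library (squares male, circles female), with the mean ± SD of 6 at the side. Plcg2HET lies wholly above WT for Plin4, Sgk1, Hif3a, Zbtb16, Fosb, Egr1, Per2 and Cry2, while 1 Plcg2HET library for Bag3 and 2 for Hspb1 fall within the WT range.

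Immediate early genes, which neurons and glia transcribe within minutes of a stimulus, had the largest share of calls. Of 27 tested, 12 rose and 0 fell, against 3.26% and 1.42% of all tested genes, with a median log2 fold change of 0.56. Fosb, a partner in the AP-1 transcription factor, had 10.3, 14.1 and 17.4 CPM as lowest, median and highest in WT and 23.4, 31.2 and 41.9 in Plcg2HET (log2 fold change 1.21, SE 0.17, adjusted p 0.00448). Egr1, a zinc finger factor, had 265, 279 and 427 CPM against 497, 594 and 743 (log2 fold change 0.99, SE 0.14, adjusted p 0.00461). Arc, whose product acts at synapses to remove AMPA receptors, had 68.6, 85.9 and 145 CPM against 156, 219 and 317 (log2 fold change 1.14, SE 0.22, adjusted p 0.0181). For all 3, every Plcg2HET library exceeded every WT library. Fosl2 (1.0, SE 0.19, adjusted p 0.0181) and Egr2 (1.04, SE 0.22, adjusted p 0.0241) also showed no overlap on the log2 scale.

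The remaining calls in the list overlapped WT in at least 1 library. They were the zinc finger factors Egr4 and Klf4, with log2 fold changes of 1.15 (SE 0.25) and 0.74 (SE 0.19), the phosphatase Dusp5 at 0.72 (SE 0.16), the nuclear receptors Nr4a1 and Nr4a3 at 0.77 (SE 0.20) and 0.84 (SE 0.22), and Fos at 0.72 (SE 0.20), with adjusted p of 0.0257 to 0.0491. Klf2, a factor also known from endothelium, rose by 1.39 (SE 0.30, adjusted p 0.0246), yet its lowest Plcg2HET library had 3.88 CPM, inside the WT range of 3.23 to 5.03. The list's count was 2 without WT F3, 3 without WT M2, 4 without Plcg2HET F3, 5 without WT F2 or Plcg2HET F1, 7 without WT M1, M3 or F1, and 0 without the 3 libraries over 5% Rn45s, where its median log2 fold change was 0.61. Fosb and Egr1 were called in all 12 fits that left out a library. On the scale of all 24 libraries, the Trem2KO mean lay above the WT mean for every called member of this list. For Fos and Nr4a1 it was 47.9 and 122 CPM, where Plcg2HET had 39.1 and 119 and WT 24.1 and 70.2. For Fosb and Egr1 it was 24.2 and 441 CPM, where Plcg2HET had 32.7 and 612 and WT 14.3 and 311. Trem2KO was not tested against either group. Against Plcg2KO, Arc differed: the homozygous mean was 140 ± 27.5 CPM and that of Plcg2HET 226 ± 57.4 (SD, n = 6; log2 difference -0.71, SE 0.17, adjusted p 0.0116), while Egr1 gave -0.25 (SE 0.15, adjusted p 0.241).

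Among clock genes, of 20 tested, 5 rose and 0 fell, against 3.26% and 1.42% of all tested genes (median log2 fold change 0.22). Per2, a repressor arm of the clock, had 22.2, 30.7 and 38.1 CPM in WT and 49.8, 56.7 and 68.1 in Plcg2HET (log2 fold change 0.96, SE 0.14, adjusted p 0.00572). Cry2, its partner, had 105, 146 and 156 CPM against 201, 240 and 266 (log2 fold change 0.78, SE 0.12, adjusted p 0.0078). Both pairs of groups were separate and both genes were called in all 12 fits that left out a library. Cry2 overlaps D930015M05Rik. The others were Per1, counted above, Nfil3 (log2 fold change 0.75, SE 0.17, adjusted p 0.0309) and Bhlhe40 (0.48, SE 0.11, adjusted p 0.0342). The list's count was 2 to 8 when 1 library was left out, with 2 without WT M2, F1 or F3 or Plcg2HET F1 or F3, 3 without WT M1 or F2 or Plcg2HET M1, and 8 without Plcg2HET M3. It was 0 without the 3 libraries over 5% Rn45s, where the median log2 fold change was 0.20. Scaled over all 24 libraries, Trem2KO averaged 164 CPM for Per1 (WT 91.6, Plcg2HET 178) and 191 for Cry2 (WT 142, Plcg2HET 239). For Per2 it averaged 31.8 CPM (WT 30.6, Plcg2HET 58.5).

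Of 23 heat shock genes tested, 5 rose and 0 fell, against 3.26% and 1.42% of all tested genes (median log2 fold change 0.23). Bag3, a co-chaperone in the clearance of misfolded proteins, had 10.3, 11.0 and 12.7 CPM in WT and 11.8, 20.3 and 24 in Plcg2HET (log2 fold change 0.79, SE 0.16, adjusted p 0.0223). Hspb1, a small heat shock protein of astrocytes and vessels, had 1.88, 2.53 and 3.69 CPM against 2.65, 9.47 and 14.0 (log2 fold change 1.65, SE 0.37, adjusted p 0.0276). Plcg2HET M3 and F2 lay within the WT range for Hspb1, and Plcg2HET M3 did for Bag3, while the other Plcg2HET libraries lay above all WT. Hspb6 (log2 fold change 0.97, SE 0.23, adjusted p 0.0335), Hspa1b (0.99, SE 0.24, adjusted p 0.0354) and Dnajb1 (0.47, SE 0.13, adjusted p 0.0474) completed the list. Hspa1b has a near-identical neighbour, Hspa1a, among which reads could be split, and Hspa1a was at 0.80 (SE 0.22, adjusted p 0.0515). Plcg2KO was lower than Plcg2HET for Bag3 (log2 difference -0.85, SE 0.17, adjusted p 0.00462) and Hspb1 (-1.69, SE 0.36, adjusted p 0.0062), with Plcg2KO levels of 1.86 to 3.60 CPM for Hspb1. Of 21 genes of the endoplasmic reticulum stress response, 4 rose and 0 fell: the folding enzyme Pdia4 (log2 fold change 0.57, SE 0.12, adjusted p 0.0241), Creld2, the chaperone Hyou1 and Herpud1, the last 3 at 0.47 to 0.55. Scaled over all 24 libraries, Trem2KO averaged 181 CPM for Hyou1 (WT 134, Plcg2HET 183) and 46.3 for Pdia4 (WT 49.4, Plcg2HET 72.7). For Bag3 it averaged 12.2 CPM (WT 11.4, Plcg2HET 19.4). When 1 library was left out, the heat shock count was 0 to 9, with 0 without WT M2, F1 or F3 or Plcg2HET F1 or F3 and 9 without Plcg2HET M3, and the endoplasmic reticulum stress count was 0 to 6, with 0 without WT M2, M3, F1, F2 or F3 or Plcg2HET F3 and 6 without Plcg2HET M3 or F2. No gene of either list was called in the fit of the 9 libraries that remain without the 3 over 5% Rn45s, where the median log2 fold changes were 0.26 and 0.21, against 0.23 and 0.20 in all 12.

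Promoter windows of the leading genes are shown because the lists are defined by regulators with known binding letters. The windows run from 250 bases before to 50 bases after an annotated start of the gene, of which a gene can have several. They come from RefSeq on GRCm38.p6, up to 2 per list by smallest p where the window could be printed. Capitals in the heat shock genes mark GAANNTTC, a heat shock element read on both strands, which 7.86% of 32851 windows hold. Capitals in the glucocorticoid genes mark AGAACA, a half-site of the glucocorticoid receptor element on either strand, held by 19.0% of windows, and in the immediate early genes TGACG, the core of the cyclic AMP response element on either strand, held by 20.8%.
Bag3 (chr7:128523333-128523632, plus strand): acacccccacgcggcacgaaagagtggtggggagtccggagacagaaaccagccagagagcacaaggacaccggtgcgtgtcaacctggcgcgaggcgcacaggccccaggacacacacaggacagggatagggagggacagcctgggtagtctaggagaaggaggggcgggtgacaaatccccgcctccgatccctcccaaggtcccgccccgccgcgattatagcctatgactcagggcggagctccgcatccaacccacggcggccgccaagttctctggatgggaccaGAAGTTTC
Hspb1 (chr5:135887669-135887968, plus strand): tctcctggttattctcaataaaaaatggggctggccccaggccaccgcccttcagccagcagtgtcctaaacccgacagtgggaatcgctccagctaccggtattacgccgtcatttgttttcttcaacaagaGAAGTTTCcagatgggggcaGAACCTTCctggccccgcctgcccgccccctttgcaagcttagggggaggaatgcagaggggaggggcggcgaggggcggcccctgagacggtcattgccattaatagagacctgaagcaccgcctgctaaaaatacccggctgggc
Sgk1 (chr10:21993640-21993939, plus strand): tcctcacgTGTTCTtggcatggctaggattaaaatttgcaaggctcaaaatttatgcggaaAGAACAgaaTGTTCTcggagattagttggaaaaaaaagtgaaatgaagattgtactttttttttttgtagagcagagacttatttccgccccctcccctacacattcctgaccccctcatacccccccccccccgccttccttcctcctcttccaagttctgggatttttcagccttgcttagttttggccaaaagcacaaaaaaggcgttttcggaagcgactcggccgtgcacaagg
Plin4 (chr17:56109733-56110032, minus strand): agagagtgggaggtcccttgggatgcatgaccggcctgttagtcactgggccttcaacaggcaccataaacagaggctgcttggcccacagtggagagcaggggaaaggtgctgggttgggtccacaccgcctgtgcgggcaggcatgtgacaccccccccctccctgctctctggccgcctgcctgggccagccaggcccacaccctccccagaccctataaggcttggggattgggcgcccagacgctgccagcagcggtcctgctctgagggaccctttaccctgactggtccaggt
Fosb (chr7:19309996-19310295, minus strand): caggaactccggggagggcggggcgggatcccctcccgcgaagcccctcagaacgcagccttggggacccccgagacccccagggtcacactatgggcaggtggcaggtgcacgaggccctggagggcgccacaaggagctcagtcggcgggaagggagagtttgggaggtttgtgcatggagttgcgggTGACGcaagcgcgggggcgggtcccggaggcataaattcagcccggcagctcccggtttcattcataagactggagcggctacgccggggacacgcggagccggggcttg
Fosl2 (chr5:32136222-32136521, plus strand): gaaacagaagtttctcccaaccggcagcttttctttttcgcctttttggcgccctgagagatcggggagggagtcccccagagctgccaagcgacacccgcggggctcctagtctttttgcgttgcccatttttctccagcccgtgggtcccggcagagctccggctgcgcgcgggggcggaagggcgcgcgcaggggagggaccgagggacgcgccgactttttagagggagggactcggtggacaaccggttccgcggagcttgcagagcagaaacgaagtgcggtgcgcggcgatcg
Bag3 had 1 match, within the first 50 bases of the gene, and Hspb1 had 2 matches before its start. The heat shock letters stood in windows of 4 of the 5 called heat shock genes. The Sgk1 window, that with the most matches among 6 windows of the gene, held 3, the later 2 forming an inverted pair 3 bases apart. This window lies inside the Sgk1 span given above (chr10:21882184-21999902) and not at the start of that span. In all, 2 of 10 called glucocorticoid-responsive genes with a window held the half-site (Sgk1 and Tsc22d3), and 9 of 10 called immediate early genes held TGACG. These counts are by gene, whereas the shares above are by window. By window, the letters stood in 4 of 7 for the called heat shock genes, 4 of 19 for the glucocorticoid-responsive and 11 of 14 for the immediate early. Plin4 and Fosl2 held none of their list's letters in these windows. A match describes the sequence and was not tested as a site.

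Of 17 pan-microglial genes, 1 rose (Laptm5, a lysosomal membrane protein) and 0 fell, against 3.26% and 1.42% of all tested genes, and the median log2 fold change was -0.01. In this list 4 genes had an unadjusted p under 0.05, 3 of them higher. DESeq2 called 2 higher and 0 lower, and limma-voom 2 and 0. Without Plcg2HET M3 and F2, with the limit given for Trem2, 4 pan-microglial genes were called higher and 1 lower. Laptm5 had 97.9, 137 and 173 CPM in WT and 115, 195 and 316 in Plcg2HET (log2 fold change 0.65, SE 0.16, adjusted p 0.0386), with groups that overlapped and a call in 2 of the 12 fits that left out a library. Of the 17 homeostatic genes none was called by edgeR, although 8 had an unadjusted p under 0.05, 5 of them higher, and DESeq2 called 1 and limma-voom 4. Without Plcg2HET M3, 4 of them were called higher and 0 lower. Without Plcg2HET M3 and F2, with the limit given for Trem2, 6 of these homeostatic genes were called higher and 2 lower. They pointed both ways: the log2 fold change was 0.59 for the nucleotide receptor gene P2ry6 (SE 0.20, adjusted p 0.0939) and -0.26 for the fractalkine receptor gene Cx3cr1 (SE 0.10, adjusted p 0.147) and -0.33 for Siglech (SE 0.12, adjusted p 0.114). Cell number and RNA per cell cannot be told apart in whole cortex.

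Of 9 disease-associated genes of the first DAM stage, which does not need TREM2, none was called by edgeR (1 at an unadjusted p under 0.05, 0 by DESeq2 and by limma-voom). Apoe, a lipid carrier of that stage, had 1980, 2590 and 3630 CPM in WT and 2170, 3400 and 4680 in Plcg2HET (log2 fold change 0.40, SE 0.18, adjusted p 0.202). Of 25 genes of the second stage 0 rose and 1 fell, against 3.26% and 1.42% of all tested genes. The 1 that fell was Lpl, which encodes lipoprotein lipase. It had 52.7, 61.4 and 79.8 CPM in WT and 26.9, 37.4 and 49.9 in Plcg2HET, without overlap (log2 fold change -0.76, SE 0.14, adjusted p 0.0181). Lpl is also expressed outside microglia. Itgax, a defining marker of the stage, had 13.1, 22.2 and 32.5 CPM against 17.3, 30.3 and 41.8 (log2 fold change 0.38, SE 0.12, adjusted p 0.0711), and Cst7 gave 0.27 (SE 0.17, adjusted p 0.362). In that list 8 genes had an unadjusted p under 0.05, 2 of them higher, DESeq2 called 1 higher and 3 lower, and limma-voom 1 and 1. Without Plcg2HET M3 and F2, with the limit given for Trem2, 6 were called higher and 2 lower. Members under 4 CPM included values below WT, with log2 fold changes of -0.82 for Ch25h (SE 0.23, adjusted p 0.0528) and -0.99 for Ccl4 (SE 0.36, adjusted p 0.111).

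**Figure D4:**
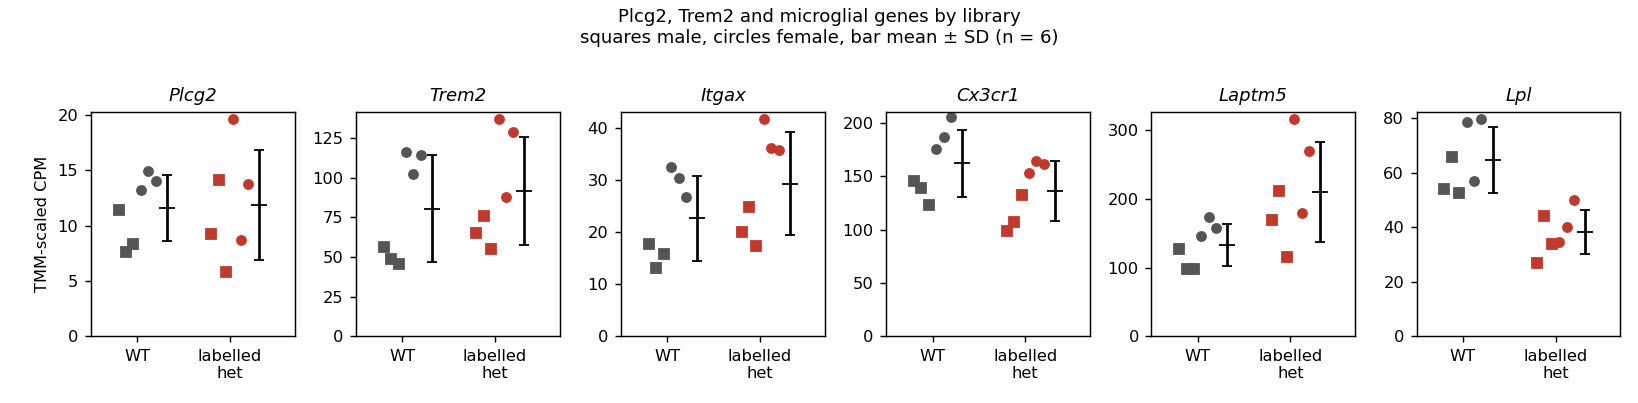
Each point is the TMM-scaled CPM of 1 library (squares male, circles female), with the mean ± SD of 6 at the side. For Plcg2, Trem2, Itgax, Cx3cr1 and Laptm5 the groups overlap and females lie mostly above males, and for Lpl every Plcg2HET library lies below every WT library.

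Of 32 tested signalling genes around TREM2 and other immunoreceptors, 4 rose and 1 fell, against 3.26% and 1.42% of all tested genes (median log2 fold change 0.13). The exchange factor Dock2 rose by 0.66 (SE 0.15, adjusted p 0.0294), the phosphatase Inpp5d, which opposes PI3 kinase at this receptor, by 0.70 (SE 0.17, adjusted p 0.0331), the kinase Syk by 0.61 (SE 0.15, adjusted p 0.0416) and the calcium-responsive factor Nfatc1 by 0.51 (SE 0.14, adjusted p 0.0462), all on the log2 scale. Rasgrp3, which diacylglycerol activates, had a log2 fold change of -0.49, with an SE of 0.13 and an adjusted p of 0.0431, and so fell. Each overlapped WT in at least 1 library, and each call held in at most 5 of the 12 fits that left out a library. The list had 0 to 6 called higher and 0 or 1 lower in those fits. Without the 3 libraries over 5% Rn45s it had 0 higher and 0 lower, with a median log2 fold change of 0.05. With no sex term it had 0 higher and 1 lower. Inpp5d spanned 23.4 to 38.3 CPM in WT and 30.6 to 81.7 in Plcg2HET.

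Plcg2KO stood apart from the libraries labelled heterozygous in these same lists. Over all 15866 genes tested, 1442 were higher in Plcg2KO (9.09%) and 2070 lower (13.0%). The total of 3512 became 6605 without Plcg2HET M3 and 1603 to 2281 without Plcg2KO M4, F1 or F2 or Plcg2HET M1, M2 or F3. In the pan-microglial list 17 of 17 were lower in Plcg2KO, in the homeostatic list 10 of 17, in DAM stage 1 5 of 9, in DAM stage 2 19 of 25, in MHC class II 8 of 8 and in TREM2 signalling 25 of 32, with 0 higher in any of them. Itgax averaged 29.7 ± 10.1 CPM in Plcg2HET and 0.902 ± 0.534 in Plcg2KO (SD, n = 6; log2 difference -4.86, SE 0.29, adjusted p 4.9e-07). Lyz2, a macrophage lysozyme, averaged 52.0 ± 17.9 and 17.0 ± 7.13 CPM (SD, n = 6; log2 difference -1.45, SE 0.19, adjusted p 0.000269), and Cx3cr1 138 ± 29.0 and 85.9 ± 16.2 CPM (SD, n = 6; log2 difference -0.60, SE 0.12, adjusted p 0.00528). Lpl was not called between Plcg2KO and Plcg2HET: it averaged 66.2 ± 12.8 CPM in WT, 38.7 ± 8.36 in Plcg2HET, 35.9 ± 4.50 in Plcg2KO and 32.6 in Trem2KO, with a log2 difference of -0.07 (SE 0.14, adjusted p 0.746) between Plcg2KO and Plcg2HET.

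No complement gene of 15 was called by edgeR (6 at an unadjusted p under 0.05, 4 by DESeq2, 3 by limma-voom), and C4b stood at 95.8, 182 and 292 CPM in WT against 122, 333 and 588 (log2 fold change 0.93, SE 0.27, adjusted p 0.06). Of 32 interferon-related genes 0 rose and 1 fell, against 3.26% and 1.42% of all tested genes: the guanylate-binding Gbp4 had 1.18, 2.36 and 3.76 CPM in WT and 0.764, 0.983 and 1.33 in Plcg2HET (log2 fold change -1.20, SE 0.22, adjusted p 0.0159), called in all 12 fits that left out a library. Of 11 MHC class I genes 0 rose and 1 fell, the nonclassical H2-T23 (log2 fold change -0.65, SE 0.12, adjusted p 0.0163), whose reads may be shared with similar genes and which overlaps A930015D03Rik. No MHC class II gene of 8 was called (0 at an unadjusted p under 0.05, 0 by DESeq2 and by limma-voom).

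Lipid and vascular genes gave changes of both signs. The counts of this paragraph stand beside 3.26% of all tested genes called higher and 1.42% lower. Of 18 genes of lipid metabolism 3 rose, Plin4, the mitochondrial carrier Ucp2 (log2 fold change 1.12, SE 0.21, adjusted p 0.0181) and the triglyceride lipase Pnpla2 (0.94, SE 0.20, adjusted p 0.0241), and Lpl fell. Of 18 hypoxia and glycolysis genes, Hif3a and the glycolytic regulator Pfkfb3 rose (0.45, SE 0.12, adjusted p 0.0463 for the latter). Vegfa, the angiogenic growth factor, fell, with 35.7, 48.1 and 58.2 CPM in WT against 22.9, 27.9 and 34.3 (log2 fold change -0.76, SE 0.13, adjusted p 0.00976), and so did Ankrd37 (-0.62, SE 0.16, adjusted p 0.0438). The groups were separate for Vegfa, which was called in all 12 fits that left out a library. Mfsd2a, a lipid transporter of the blood-brain barrier, was the only called gene of 21 endothelial genes (0.80, SE 0.13, adjusted p 0.00922). Meningeal fibroblast genes had 4 of 18 called higher and 0 lower (Slc13a3, Aebp1, Slc22a6 and Fmod, at 0.71 to 1.0), and the summed level of the list was 296 to 379 CPM in WT and 400 to 530 in Plcg2HET. The count was 0 to 8 when 1 library was left out, with 0 without WT M2, M3, F1 or F3 or Plcg2HET F1 or F3 and 8 without Plcg2HET M3 or F2, and it was 0 without the 3 libraries over 5% Rn45s. Scaled over all 24 libraries, Trem2KO averaged 48.9 CPM for Aebp1 (WT 25.8, Plcg2HET 51.0) and 39.4 for Slc13a3 (WT 24.7, Plcg2HET 47.1). For Slc22a6 it averaged 13.6 CPM (WT 8.17, Plcg2HET 13.4). The border macrophage list had 1 of 14 called higher (Dab2, 0.53, SE 0.12, adjusted p 0.026) and summed to 51.0 to 63.2 CPM in WT and 65.1 to 90.7 in Plcg2HET. The part of tissue taken with the cortex in these results was not tested.

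Markers of neurons and glia bear on the dissection and on cell makeup. No gene of 18 excitatory and 20 inhibitory neuron markers was called by edgeR, with 6 and 4 at an unadjusted p under 0.05, and DESeq2 called 2 and 1 of them and limma-voom 4 and 1. The summed level was 9590 to 12000 CPM in WT and 11600 to 13500 in Plcg2HET for the excitatory list. In the myelinating oligodendrocyte list 1 of 18 was called higher and 0 lower (8 at an unadjusted p under 0.05, 4 of them higher), in the precursor list 1 of 14, in the homeostatic astrocyte list 2 of 20, in the hippocampal list 1 of 14 and in the thalamic list 2 of 15, with 0 lower in each. Of all tested genes, 3.26% were called higher and 1.42% lower, so counts of 1 or 2 are near that share. In the precursor list, every Plcg2HET library lay below every WT library for 2 of 14 genes, neither of them called. This held for 1.51% of all tested genes. Called higher were the oligodendrocyte factors Myrf (0.70, SE 0.18, adjusted p 0.0429) and Sox10 (0.93, SE 0.23, adjusted p 0.0399), the astrocyte pump subunit Atp1b2 (0.84, SE 0.18, adjusted p 0.0257), Fmo2 (0.97, SE 0.15, adjusted p 0.0078), Wfs1 of the hippocampal list (0.64, SE 0.15, adjusted p 0.0336), and Tcf7l2 (0.66, SE 0.15, adjusted p 0.0294) and Six3 (0.58, SE 0.15, adjusted p 0.0393) of the thalamic list. Among 13 blood and neutrophil markers in the table none passed the filter, and 4 had no read in any of the 12 libraries. Of genes tied to the transgenes, App gave 0.01 on the log2 scale (SE 0.12, adjusted p 0.98) and Thy1, whose promoter drives the transgenes, 0.22 (SE 0.10, adjusted p 0.211). The labels do not say how reads of the human transgenes were assigned to the mouse genes.

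Among genes chosen for size alone rather than by list, the 12 largest increases included Atoh8, a developmental transcription factor (log2 fold change 1.74, SE 0.36, adjusted p 0.0239), the smooth muscle gene Lmod1 (1.46, SE 0.35, adjusted p 0.0342), Eya2 (1.29, SE 0.21, adjusted p 0.00976), Prr5, a subunit of the mTORC2 kinase complex (1.15, SE 0.19, adjusted p 0.00922), and Zbtb40 (1.15, SE 0.16, adjusted p 0.00448). Scaled over all 24 libraries, Trem2KO averaged 2.79 CPM for Eya2 (WT 1.21, Plcg2HET 2.95) and 11.2 for Zbtb40 (WT 8.5, Plcg2HET 18.7). Rtp1, known as a chaperone of odorant receptors, was among the 10 smallest p with 0.381, 0.867 and 1.01 CPM in WT and 2.49, 2.74 and 4.20 in Plcg2HET. Its groups were separate (log2 fold change 1.87, SE 0.20, adjusted p 0.000519), and its low level leaves few reads behind each value.

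The genes that fell by the most or with the smallest p were of varied function. Fjx1, a secreted regulator of growth, had 42.9, 51.2 and 61.7 CPM in WT and 26.2, 28.4 and 34.0 in Plcg2HET (log2 fold change -0.81, SE 0.10, adjusted p 0.00336). Mex3b, an RNA-binding protein, had 7.46, 10.4 and 13.2 CPM against 4.51, 5.68 and 7.27 (log2 fold change -0.84, SE 0.11, adjusted p 0.00442). Snhg11, an abundant noncoding RNA that hosts small nucleolar RNAs, had 1010, 1290 and 1580 CPM against 502, 698 and 984 (log2 fold change -0.84, SE 0.14, adjusted p 0.00922). None of these overlapped between groups, and each was called in all 12 fits that left out a library. Oacyl fell further, from 1.21 to 2.38 CPM in WT to 0.304 to 0.846 (log2 fold change -1.82, SE 0.24, adjusted p 0.00417). Other decreases were Rnf207, Fam198b, Fbxo17, Col24a1 and Rccd1, at -0.82 to -0.96, and the transcripts B230206H07Rik, 4932416H05Rik, Zfhx2os and Gm38413, at -0.83 to -1.21. Rnf207, B230206H07Rik, 4932416H05Rik and Zfhx2os each overlap another gene. In Plcg2KO, Mex3b averaged 9.89 ± 1.30 CPM against 5.84 ± 1.01 in Plcg2HET (SD, n = 6; log2 difference 0.75, SE 0.14, adjusted p 0.00247), whereas Snhg11 averaged 905 ± 146 against 746 ± 169 (SD, n = 6; log2 difference 0.27, SE 0.15, adjusted p 0.201).

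**Figure D5:**
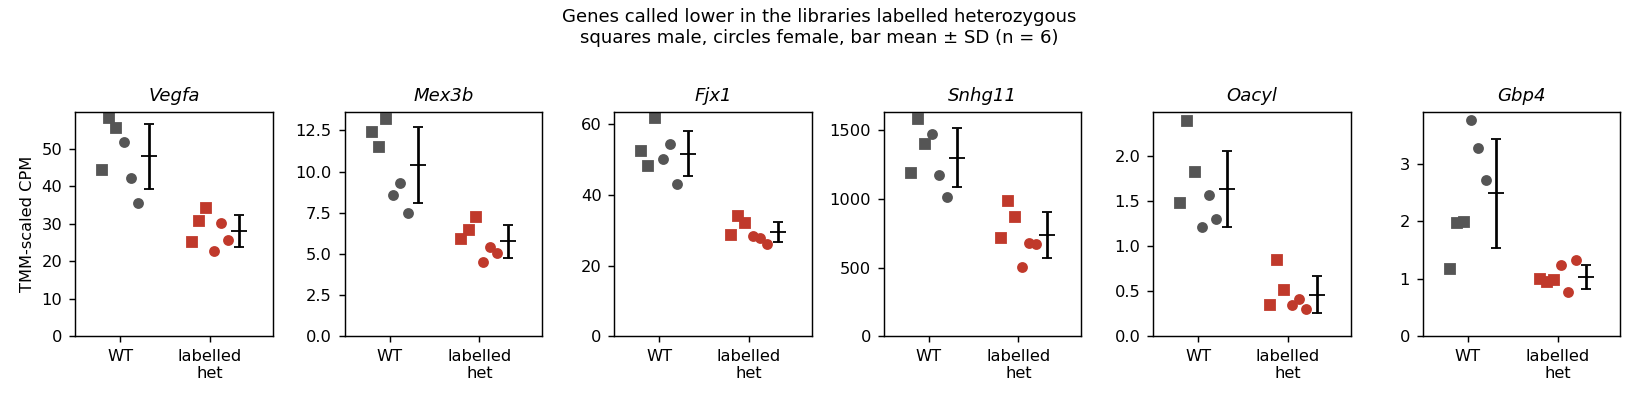
Each point is the TMM-scaled CPM of 1 library (squares male, circles female), with the mean ± SD of 6 at the side. Every Plcg2HET library lies below every WT library for Vegfa, Mex3b, Fjx1, Snhg11 and Oacyl, and 4 of the 6 do for Gbp4.

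The sexes were compared in their response to the label. No gene passed the interaction test of sex and group in edgeR (279 of 15739 at an unadjusted p under 0.05, and an adjusted p of 1 throughout). Without Plcg2HET M3 2416 genes were at an unadjusted p under 0.05 and without Plcg2HET F1 717, with 0 called in either. The 5 smallest p belonged to Ggnbp2os, Rtl1, Pcbd2, Pcdh12 and Lrrc14b. Within one sex 1 gene was called in males and 5 in females. Plin4 had log2 fold changes of 3.25 in males and 2.86 in females, Sgk1 1.01 and 1.23, Fosb 1.10 and 1.36, and Egr1 0.95 and 1.07, the same sign in both sexes. These genes were named from the same libraries.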

How the data were processed

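RNA was extracted with the PureLink RNA mini kit and 100 ng entered the KAPA mRNA Hyperprep kit, per the labels' protocols. The authors deposited a matrix of whole-number read counts over 24421 genes and their exons, per the file headers. STAR 2.7.10a, featureCounts 2.0.3 and mm10 are named in the submitters' processing notes. A further deposited table holds expected counts, TPM, FPKM and effective lengths, per the file headers; no source used here names its tool. Only the expected counts of that table were used, rounded, in an alternative fit.

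Counts of the 12 libraries were analysed in R 4.3.3 with edgeR 4.0.16: filterByExpr with a minimum count of 10, TMM scaling and a robust quasi-likelihood fit with sex as a covariate. Genes with a Benjamini-Hochberg adjusted p under 0.05 were called. Standard errors and 95% intervals come from that fit. Plcg2KO was compared with Plcg2HET the same way in their 12 libraries, so both comparisons share the Plcg2HET libraries. The fit was tested on simulated counts with 1 dispersion for all genes and both groups. That simulation held neither the wider spread of Plcg2HET nor the trends with GC content, so it does not cover them. The alternatives include DESeq2 1.42.0 and limma 3.58.1 (voom with library weights). Correlations of log2 counts between libraries were 0.981 to 0.994, and no pair was identical.

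Members and the 41 gene lists were chosen with earlier results of these data known. Named genes are Plcg2, Trem2, the 12 largest increases and decreases (average log2 CPM 1 or more), the 10 smallest p and the 4 smallest p of each list; the other called members of the leading lists, and App, Hspa1a and Cst7, were added after their values were seen. Gene spans overlapped another gene for 5764 of 24421 genes, and 725 of 757 list genes were in the table. The result of 1 gene that this rule names is not reported here.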

Additional observations from a re-analysis of the deposited data

Results flagged for a closer look

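Among 222 groups of 6 values examined (the named genes and 7 library measures in WT and Plcg2HET), 12 held a library whose gap to the nearest other exceeded Dixon's 95% critical share of the group's range, and chance gives about 1 in 20. The Rn45s share of reads was far from the rest in WT F1 at 9.59%, where the other WT libraries had 1.31 to 2.69%, and in Plcg2HET F3 at 29.0%, where the others had 0.723 to 5.29%. In WT, Egr1 stood at 427 CPM in M3 with the others at 265 to 312, Bag3 at 12.7 CPM in F1 with the others at 10.3 to 11.2, and M2 was low for Hif3a at 2.94 CPM, with the others at 3.98 to 4.41, and for Rtp1 at 0.381 CPM, with the others at 0.809 to 1.01. In Plcg2HET, M1 was high for Hspa1b at 27.8 CPM, where the others had 7.08 to 12.3, and low for Six3 at 14.6 CPM, where the others had 18.9 to 20.5. Plcg2HET F2 was high for Bhlhe40 at 243 CPM, with the others at 165 to 194, and for Pfkfb3 at 78.0 CPM, with the others at 45.0 to 56.5. Plcg2HET F1 was high for Rtp1 at 4.20 CPM, with the others at 2.49 to 3.12, and Plcg2HET M3 for 4932416H05Rik at 4.44 CPM, with the others at 2.87 to 3.42.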

How the results depend on the processing

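The 736 calls became 2191 with GC and length offsets, 2936 in a fit of all 24 libraries, 1921 with DESeq2, 2089 with limma-voom, 5608 without Plcg2HET M3 and F2, and 1 without libraries over 5% Rn45s; 1 and 5 were called in males and females alone. They stayed within 1.5 times with RLE size factors, other filters on low counts, no sex term and the deposited expected counts. Leaving out 1 library gave 66 to 2057 calls, 5 to 15 glucocorticoid-responsive members and 2 to 15 immediate early members called higher, log2 fold changes of -0.12 to 0.16 for Plcg2 and 0.17 to 0.33 for Trem2, and 0 calls for the sex difference throughout. The 11 glucocorticoid-responsive and 12 immediate early members became 1 and 0 in males, 4 and 0 in females, and 1 and 0 without libraries over 5% Rn45s; the first became 19 without Plcg2HET M3 and F2. Trem2 passed the threshold at 0.27 with GC and length offsets and at 0.39 without Plcg2HET M3 and F2. Those libraries lay with WT M2 on the first principal component of these same counts, so leaving them out can by itself widen differences from WT. The cause of these shifts was not tested; the fits by sex or without libraries also have fewer samples. The difference between Plcg2KO and Plcg2HET gave 3512 calls, 5746 in the fit of all 24 libraries, and 1603 to 6605 when 1 library was left out. Same-numbered mice of the groups showed no shared deviation (correlations of -0.219 to 0.211, with 1 of 6 WT libraries closest to its own number). So few pairs cannot show whether the numbers pair the mice. With the replicate block, 14 genes were called (10 higher, 4 lower), with 5 glucocorticoid-responsive and 2 immediate early members among the higher, and 1051 between Plcg2KO and Plcg2HET. No named gene changed direction while called in any alternative, all of which reuse libraries of the main fit. Fold changes of genes near 1 CPM rest on few reads, and Rn45s reads lower the depth left for other genes.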

Other observations

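Gene lists not described above held at most 1 called member, where 3.26% of all tested genes were called higher and 1.42% lower. Of 27 reactive astrocyte genes 1 was called higher (Hspb1), and Serpina3n was at 0.61 on the log2 scale (SE 0.18, adjusted p 0.0656). No gene was called by edgeR among 20 genes of cholesterol synthesis and efflux (4 at an unadjusted p under 0.05; 2 called by DESeq2 and 2 by limma-voom), 15 pericyte and smooth muscle genes (2; 1 and 1), 13 choroid plexus and ependymal genes (2; 2 and 2), 15 striatal genes (3; 1 and 3), 29 nuclear genes of oxidative phosphorylation (5; 1 and 1), 29 ribosomal protein genes (4; 1 and 1) and 17 Notch genes (4; 3 and 1). The 30 clustered protocadherin genes (2 at an unadjusted p under 0.05), 4 lymphocyte genes (0) and 5 sex-linked genes (0) had no call by any of the 3 tools. Ribosomal protein genes summed to 5440 to 9420 CPM in WT and 3820 to 9330 in Plcg2HET. Against Plcg2HET, 15 of the 30 protocadherin genes were higher and 1 lower in Plcg2KO, where 9.09% and 13.0% of all genes tested were. The table of counts held no mitochondrially encoded gene.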
